A study of Homo sapiens with 6 samples.

Results

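The genes described here are p53 targets and p53 regulators that act on the cell cycle and in the stress response, taken from a list of 30 genes. Every probe carrying a listed symbol in the platform annotation was collected, and the probe with the highest mean intensity stood for its gene. Of the 30 genes, 28 had a probe, with 41 probes in all among the 48803 on the array, and 26 passed the filter on dim probes and were tested among 12783 genes. BTG2 and FDXR had no probe under their symbol in the annotation used here, and MDM2 and PLK2 were too dim for the test.

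The arrays compared TE13, a cell line from human esophageal squamous cell carcinoma, with TE13R, a radioresistant line derived from it by repeated fractions of X-rays. Both lines were grown under the same conditions, irradiated with a linear accelerator, and profiled at 0, 8 and 24 h. The X-ray dose before profiling was not stated in the sources used here, and TE13R stands for 1 derived line. Each line and time point has 1 array, so in the fit the lines served as each other's repeat for the time points and the time points did so for the lines.

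The tumor suppressor p53 is a transcription factor that is stabilised when DNA is damaged. It binds a response element made of a pair of similar decamers and turns on genes that stop the cell cycle, repair DNA, adjust metabolism or start apoptosis. Some of its targets, MDM2 and PPM1D among them, act back on p53 and limit the response. Several stress targets, such as GDF15 and SESN2, are also switched on by ATF4, the transcription factor of the integrated stress response.

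Intensities are the deposited values on a linear scale, with the background already subtracted. The detection limit of 20.2 was set at 3 times the root mean square of negative intensities, and a value under it was treated as not above background. On each array 37.3% of the probes exceeded it. Of the 28 measured members, 18 were above the limit on all 6 arrays, 10 on some and 0 on none. CCNG1, POLH, RPS27L, RRM2B and TP53INP1 each had a second probe that was under the limit on all 6 arrays. The arrays of both lines at the same time correlated with r of 0.966 to 0.97 across genes, while the 0 h arrays correlated with the later arrays of their line with r of only 0.863 to 0.923. The 9 squamous and epithelial markers with a probe were above the limit on all arrays, with sums of 49640 to 82822. The fibroblast markers COL1A2, COL3A1 and DCN (sum of the fibroblast list 22.0 to 79.3) and the leukocyte markers PTPRC and CD3E were above it on none. The fibroblast marker COL1A1 was above it on every TE13 array (42.3, 28.8 and 44.4) and on no TE13R array. PDGFRB was above it in TE13 at 24 h only (24.5), and LUM (30.7) and LYZ (20.7) in TE13R at 0 h only. CD68, VWF and PECAM1 were above it on all arrays, CD68 between 1263 and 4560, VWF between 20.6 and 940 and PECAM1 between 29.6 and 139, and CD14 was above it on 5, between 15.8 and 92.9.

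After irradiation the members changed in both directions. The arrays include no unirradiated culture at 8 or 24 h, so irradiation and time in culture cannot be told apart. At 8 h against 0 h, 10 of the 26 tested members (38.5%) rose, beside 27.5% of all genes tested, and 8 (30.8%) fell, beside 28.8%. At 24 h against 0 h, 8 members (30.8%) rose, beside 27.8%, and 7 (26.9%) fell, beside 27.8%. Calls are limma's, at a Benjamini-Hochberg adjusted p below 0.05 over all genes tested. The members' shares of falling genes at both times and of rising genes at 24 h were thus close to those of all genes. The members' median change was -0.05 on the log2 scale at 8 h and 0.17 at 24 h, beside 0.09 and 0.07 over all genes. Both of these comparisons use the same 0 h arrays. Without the filter on dim probes, 12 of the 18 calls at 8 h and 8 of the 15 at 24 h were kept, and without the line in the model 15 and 13. Each array reads a whole culture, so fewer cells expressing a gene and less RNA per cell cannot be told apart.

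Between 8 and 24 h, which does not use the 0 h arrays, 6 members (23.1%) rose, beside 7.67% of all genes, and 3 (11.5%) fell, beside 5.23%. The members were chosen with earlier results of these data known, so these shares are no test of the list. The 6 that rose were CDKN1A, GDF15, GADD45B, SESN2, BTG1 and CCNG2, and the 3 that fell were TP53I3, TRIAP1 and AEN. None of these 9 calls was kept when the line was left out of the model or when the filter on dim probes was dropped, and 2 of them (CCNG2 and TRIAP1) were kept without the mean-variance trend.

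By timing, 6 members were higher at both times (AEN, GADD45B, PHLDA3, SERTAD1, SESN2 and ZMAT3) and 5 were lower at both (CCNG1, MDM4, RRM2B, SESN1 and SPATA18). Another 4 were called higher at 8 h alone (PLK3, RPS27L, TP53I3 and TRIAP1) and 2 at 24 h alone (CDKN1A and GDF15). BTG1, CCNG2 and PPM1D were called lower at 8 h alone, and EI24 and TIGAR at 24 h alone. GADD45A, PERP, POLH and TP53INP1 were called at neither time, and 0 members were called in opposite directions.

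**Figure D1:**
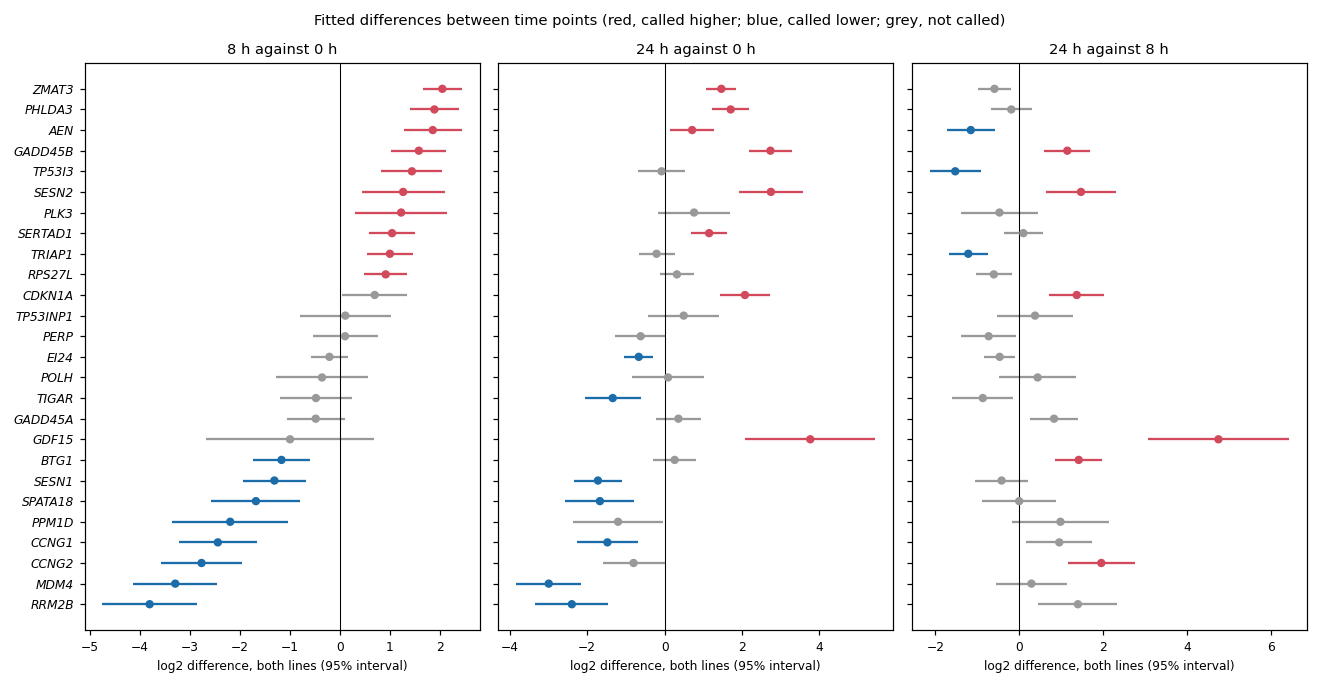
Fitted log2 differences between time points for the 26 tested members (points) with 95% intervals (lines), both lines together, in 3 panels for 8 h against 0 h, 24 h against 0 h and 24 h against 8 h. Red points were called higher and blue points lower at an adjusted p below 0.05 (limma), and grey points were not called: 10 red and 8 blue at 8 h, 8 and 7 at 24 h, and 6 and 3 between them.

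Promoter windows of RefSeq (build GRCh38.p14), from 250 bases before to 50 after each annotated start, held 34 starts of 26 members. Both strands were searched, and only exact matches to the consensus letters of the decamer were counted. One decamer of the p53 element was found in 6 of the 34 windows (17.6%), those of AEN, EI24, FDXR, PLK2, RPS27L and SESN1, beside 6.63% of all 35116 windows and 5.9% of those of tested genes. A pair of decamers was in 0 of the 34, beside 0.0285% of all windows. Elements with a mismatched base or outside the window were not counted, so the 0 does not show that a member lacks a p53 element. The windows of 4 members are shown because these genes carry the decamer and moved in different directions, AEN and RPS27L higher at 8 h and SESN1 and EI24 lower at 24 h. Capitals mark the decamer, and each run is read 5′ to 3′ on the strand of the gene.
AEN, chr15:88621281-88621339, plus strand, decamer at -34 to -25 from the start: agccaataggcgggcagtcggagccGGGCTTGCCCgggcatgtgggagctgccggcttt
RPS27L, chr15:63157502-63157561, minus strand, decamer at -59 to -50: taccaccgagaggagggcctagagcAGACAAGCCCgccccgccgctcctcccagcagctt
SESN1, chr6:109009003-109009062, minus strand, decamer at -49 to -40: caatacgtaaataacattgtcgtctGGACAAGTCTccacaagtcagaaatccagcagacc
EI24, chr11:125569442-125569476, plus strand, decamer at -10 to -1: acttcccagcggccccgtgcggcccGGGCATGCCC

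The letters TATAAA, the core of a TATA box, were in the windows of 3 members, GDF15, GADD45B and BTG1 (8.82% of the 34 windows, beside 11.5% of all windows and 7.27% of those of tested genes). These 3 are among the 6 members that rose between 8 and 24 h, and their windows are shown with TATAAA in capitals. The share with TATAAA among all genes that rose then was not computed, and a link to the rise was not tested.
GDF15, chr19:18386104-18386157, plus strand, at -29 to -24: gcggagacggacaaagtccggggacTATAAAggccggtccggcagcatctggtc
GADD45B, chr19:2476071-2476126, plus strand, at -31 to -26: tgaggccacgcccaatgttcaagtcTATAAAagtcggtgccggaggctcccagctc
BTG1, chr12:92145849-92145904, minus strand, at -33 to -28: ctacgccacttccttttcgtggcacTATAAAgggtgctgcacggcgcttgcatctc

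The ATF and CREB letters TGACGTCA were in 1 member window, that of PPM1D (2.94%, beside 1.85% of all and 2.61% of those of tested genes). The C/EBP and ATF letters TGATGCAA were in 0, beside 0.866% and 0.583%, and the NF-kB motif in 0, beside 0.191% and 0.214%. The cell cycle homology letters TTTGAA were in the windows of MDM4 and ZMAT3 (5.88%, beside 15.2% and 11.3%), and the GC box GGGCGG in 82.4%, beside 45% of all and 62.8% of those of tested genes. A match of letters describes the sequence and does not show that a factor binds there. No window was found for RRM2B, TP53INP1, GADD45A or PHLDA3.

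Among the members, MDM2, MDM4, PPM1D and CCNG1 act back on p53. MDM4, PPM1D and CCNG1 fell at 8 h, where 28.8% of all genes did, and MDM2 was too dim for the test. MDM2, the ubiquitin ligase that marks p53 for destruction, had intensities of 48.0, 2.76 and -3.53 at 0, 8 and 24 h in TE13 and of 47.3, -7.39 and 1.34 in TE13R. It was above background on the 0 h arrays only, so it was at least 2.36-fold lower at both later times, a difference with no test. MDM4, a relative of MDM2 that covers the activation domain of p53, was at 169, -7.54 and 2.39 in TE13 and at 174, 7.12 and 14.2 in TE13R. Both 0 h arrays were well above the limit and all 4 later arrays were below it. MDM4 fell at both times, at least 8.51-fold (adjusted p = 3.44e-04 at 8 h and 6.72e-04 at 24 h, limma).

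PPM1D, a phosphatase that switches off p53 and its upstream kinases, was at 139, 25.3 and 24.0 in TE13 and at 129, 10.2 and 90.1 in TE13R. All later arrays lay below both 0 h arrays, and the 24 h array of TE13R came closest to them. PPM1D fell at 8 h by 2.19 ± 0.50 on the log2 scale (SE, adjusted p = 0.0069), while the difference at 24 h, -1.20 ± 0.50, was not called (adjusted p = 0.0741). CCNG1 encodes cyclin G1, which brings a phosphatase to MDM2, and its intensities were 717, 86.3 and 157 in TE13 and 514, 114 and 273 in TE13R. It fell 8.31-fold in TE13 and 4.52-fold in TE13R at 8 h (log2 change -2.44 ± 0.34, adjusted p = 7.4e-04). At 24 h it was 4.56-fold and 1.88-fold below the 0 h array of its line (adjusted p = 0.00703). The fall of CCNG1 rests on this probe, since its second probe was under the limit on every array.

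Among the cell cycle inhibitors, CDKN1A (p21), which blocks the cyclin-dependent kinases, was among the brightest members. Its intensities were 1917, 4756 and 11711 in TE13 and 3931, 4203 and 11530 in TE13R. The lines started apart, with TE13R above TE13 at 0 h, and were nearly equal at 24 h. CDKN1A rose by 24 h by 2.08 ± 0.28 on the log2 scale (adjusted p = 8.9e-04), which was 6.11-fold in TE13 and 2.93-fold in TE13R. At 8 h it was 2.48-fold above 0 h in TE13 and 1.07-fold in TE13R, which was not called together (0.70 ± 0.28, adjusted p = 0.066). It was called at 8 h with the arrays centred on their medians (adjusted p = 0.0458). A second, dim probe of CDKN1A was at 8.85, 63.7 and 63.8 in TE13 and at 18.3, 24.7 and 71.5 in TE13R.

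The GADD45 proteins bind cell cycle and stress kinase partners after DNA damage. GADD45B was at 118, 399 and 870 in TE13 and at 110, 350 and 828 in TE13R, with the lines close together at each time and each later array above the one before. It rose by 1.58 ± 0.24 at 8 h (adjusted p = 0.00101) and by 2.73 ± 0.24 at 24 h (adjusted p = 5.47e-04). In linear terms this was 7.35-fold in TE13 and 7.53-fold in TE13R at 24 h. GADD45A, the member of the family best known as a p53 target, was at 2400, 1245 and 2317 in TE13 and at 1600, 1580 and 2725 in TE13R. Its 0 h and later arrays overlapped, and it was called at neither 8 h (-0.48 ± 0.25, adjusted p = 0.139) nor 24 h (0.36 ± 0.25). Its second probe was at 1223, 979 and 1529 in TE13 and at 857, 1200 and 1883 in TE13R. By that probe both 24 h arrays were above both 0 h arrays. With the mean of both probes GADD45A was also called at neither time (limma adjusted p = 0.525 and 0.101).

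BTG1, an antiproliferative adaptor of the deadenylase complex, was at 2363, 1422 and 3787 in TE13 and at 3659, 1195 and 3274 in TE13R. The 8 h arrays were the lowest in both lines, and the 24 h arrays overlapped the 0 h arrays. BTG1 fell by 1.16 ± 0.24 at 8 h (adjusted p = 0.00453) and rose by 1.42 between 8 and 24 h (adjusted p = 0.0156). CCNG2, an unconventional cyclin that slows the cycle, went the same way, with 78.8, -3.10 and 43.4 in TE13 and 108, -18.5 and 49.2 in TE13R. It was under the limit on both 8 h arrays, at least 4.58-fold lower than at 0 h (adjusted p = 5.07e-04), and rose at least 2.29-fold from 8 to 24 h (adjusted p = 0.0165). All 3 probes of CCNG2 were lower at 8 h.

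SERTAD1 binds CDK4 and the E2F machinery, and its intensities were 1544, 2994 and 3957 in TE13 and 1675, 3724 and 3250 in TE13R. It rose by 1.05 ± 0.20 at 8 h (adjusted p = 0.00277) and 1.15 ± 0.20 at 24 h (adjusted p = 0.00209), with all 4 later arrays above both 0 h arrays. PLK3, a stress-activated polo-like kinase, was dim, at 9.82, 67.7 and 45.4 in TE13 and 6.4, 22 and 11 in TE13R. It was under the limit on both 0 h arrays and rose at least 1.91-fold at 8 h (adjusted p = 0.0304). PLK2, its relative, was at 35.4, 5.71 and -8.92 in TE13 and at 10.9, 5.85 and -1.18 in TE13R. It was above background on the 0 h array of TE13 only and was not tested.

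The secreted and metabolic stress targets held the largest rise at 24 h. GDF15, a cytokine of the TGF-beta family with TATAAA before its start, was at 514, 848 and 23457 in TE13 and at 4917, 748 and 20486 in TE13R. The 0 h array of TE13R was far above that of TE13, the 8 h arrays were close, and the 24 h arrays were the brightest of any member. GDF15 rose by 3.76 ± 0.72 at 24 h (adjusted p = 0.00339) and by 4.75 ± 0.72 between 8 and 24 h (adjusted p = 0.0121), the latter 27.7-fold in TE13 and 27.4-fold in TE13R. At 8 h it was 1.65-fold higher than at 0 h in TE13 and 6.58-fold lower in TE13R.

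The sestrins restrain mTORC1 under stress, and the pair measured here moved in opposite directions. SESN2 was at 39.5, 170 and 550 in TE13 and at 71.8, 136 and 371 in TE13R, lowest at 0 h and highest at 24 h in both lines. It rose by 1.27 ± 0.36 at 8 h (adjusted p = 0.0172) and by 2.75 ± 0.36 at 24 h (adjusted p = 7.99e-04), 13.9-fold in TE13 and 5.17-fold in TE13R at the latter time. SESN1 was at 566, 203 and 128 in TE13 and at 542, 227 and 191 in TE13R, the reverse order of times. It fell by 1.31 ± 0.27 at 8 h (adjusted p = 0.00431) and by 1.72 ± 0.27 at 24 h (adjusted p = 0.00147). SESN1 spans 111 kb, the longest of the members, and SESN2 spans 23.0 kb.

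TP53I3, a quinone oxidoreductase, was at 1815, 3795 and 1178 in TE13 and at 1044, 3752 and 1438 in TE13R. Both 8 h arrays were above all others, and the 0 and 24 h arrays overlapped. It rose by 1.44 ± 0.26 at 8 h (adjusted p = 0.00237) and fell by 1.52 between 8 and 24 h (adjusted p = 0.0159). TIGAR, a phosphatase that lowers glycolytic flux, was at 537, 275 and 144 in TE13 and at 284, 280 and 146 in TE13R. All later arrays were below both 0 h arrays, at 8 h by little in TE13R, and TIGAR fell by 1.34 ± 0.31 at 24 h (adjusted p = 0.00785).

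The members of DNA synthesis and repair were RRM2B and POLH. RRM2B, a small subunit of ribonucleotide reductase, was at 256, -2.04 and 16.6 in TE13 and at 222, 4.87 and 55.5 in TE13R. It was under the limit on both 8 h arrays, at least 11.8-fold lower than at 0 h (adjusted p = 3.2e-04), and was still lower at 24 h (-2.40 ± 0.41, adjusted p = 0.002). The fall of RRM2B rests on this probe, since its second probe was under the limit on every array, those at 0 h included. POLH, the polymerase that copies across ultraviolet lesions, was at 37.3, 44.9 and 44.3 in TE13 and at 26.8, 6.97 and 26.7 in TE13R, and was called at neither time.

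Of the genes tied to apoptosis and survival, AEN encodes a nuclease that promotes apoptosis and has a p53 decamer close to its start, as shown above. It was at 1447, 4036 and 1699 in TE13 and at 1106, 5342 and 2546 in TE13R. The 8 h arrays were the highest, and AEN rose by 1.86 ± 0.25 at 8 h (adjusted p = 6.48e-04). It was also called at 24 h (0.71 ± 0.25, adjusted p = 0.041), where TE13 was 1.17-fold and TE13R 2.30-fold above its 0 h array. That call was lost without the line in the model, without the mean-variance trend and without the filter.

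PHLDA3, which competes with AKT at the membrane, was at 647, 2879 and 2669 in TE13 and at 864, 2764 and 2295 in TE13R. It rose by 1.89 ± 0.21 at 8 h (adjusted p = 3.43e-04) and by 1.71 ± 0.21 at 24 h (adjusted p = 6.85e-04), and all later arrays were above both 0 h arrays. TRIAP1, a mitochondrial lipid transfer partner that protects from apoptosis, was at 766, 1541 and 609 in TE13 and at 644, 1317 and 602 in TE13R. It was higher at 8 h by 2.01-fold in TE13 and 2.04-fold in TE13R (adjusted p = 0.0036) and had fallen by 1.21 on the log2 scale at 24 h against 8 h (adjusted p = 0.0143).

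RPS27L, a ribosomal protein close in sequence to RPS27, was at 3586, 8314 and 4756 in TE13 and at 6422, 9950 and 7526 in TE13R. The 8 h array was the highest in each line, and RPS27L rose by 0.92 ± 0.19 at 8 h (adjusted p = 0.00381). SPATA18, which takes part in the quality control of mitochondria, was at 129, 18.3 and 29.7 in TE13 and at 35.4, 5.25 and -1.68 in TE13R. It fell by 1.67 ± 0.38 at both 8 h (adjusted p = 0.00688) and 24 h (adjusted p = 0.00723), and at 8 h it was under the limit in both lines, at least 3.34-fold lower. EI24, an endoplasmic reticulum protein of autophagy, was at 4117, 3407 and 2590 in TE13 and at 4218, 3832 and 2642 in TE13R, and fell by 0.67 ± 0.16 at 24 h (adjusted p = 0.00937). Its second probe was at 707, 892 and 506 in TE13 and at 658, 880 and 685 in TE13R, and the call was lost with the mean of both probes.

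PERP, a desmosomal membrane protein of stratified epithelia, was at 189, 247 and 143 in TE13 and at 313, 282 and 164 in TE13R. Both 24 h arrays were below both 0 h arrays, and the difference, -0.62, was not called (adjusted p = 0.0951). TP53INP1, a stress-induced protein of autophagy, was at 13.6, 30.9 and 34.7 in TE13 and at 36.4, 22.6 and 44.5 in TE13R, and was called at neither time.

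**Figure D2:**
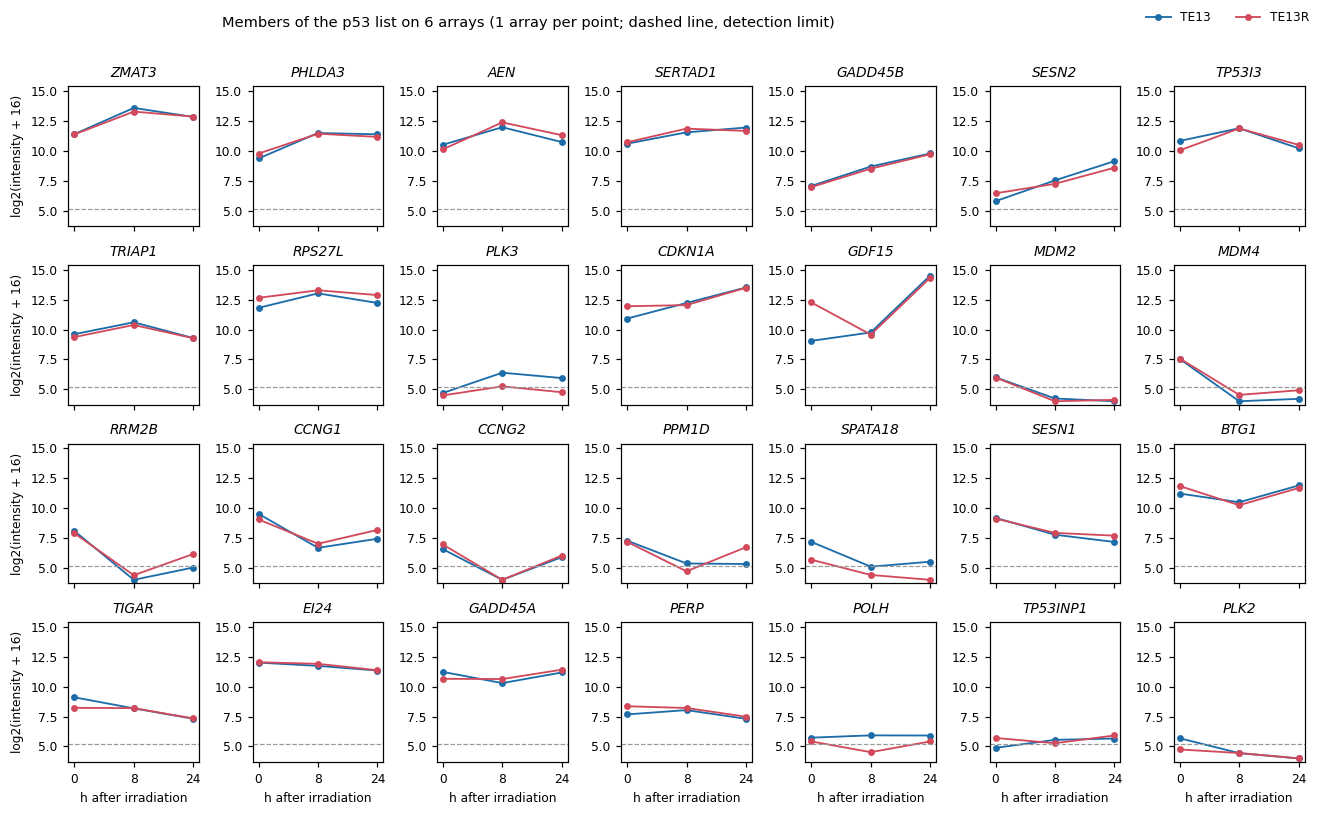
Level of each of the 28 measured members, as log2 of the intensity plus 16 (vertical axis), at 0, 8 and 24 h after irradiation (horizontal axis) in TE13 and TE13R, 1 array per point. The dashed line marks the detection limit of 20.2. GDF15 at 24 h reaches 23457 in TE13 and 20486 in TE13R, while MDM2, MDM4 and PLK2 lie under the limit after irradiation in both lines.

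ZMAT3, a zinc finger protein that binds RNA, gave results that depended on the probe. Its brightest probe, ILMN_2361104, was at 2695, 12392 and 7330 in TE13 and at 2651, 10013 and 7484 in TE13R. By this probe ZMAT3 had the largest rise of any member at 8 h, 2.05 ± 0.17 (adjusted p = 2.22e-04), and was still higher at 24 h (1.46 ± 0.17, adjusted p = 5.96e-04). The probe ILMN_1654262 was at 543, 202 and 108 in TE13 and at 387, 269 and 92.4 in TE13R, and ILMN_1865764 was at 445, 136 and 33.0 in TE13 and at 388, 222 and 115 in TE13R. Both dimmer probes were lower on all 4 later arrays than on either 0 h array, the reverse of the brightest probe. With the mean of the 3 probes, ZMAT3 changed by -0.02 at 8 h, which was not called, and by -1.0 at 24 h (adjusted p = 0.00817). Which part of the transcript each probe reads was not stated in the sources used here.

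**Figure D3:**
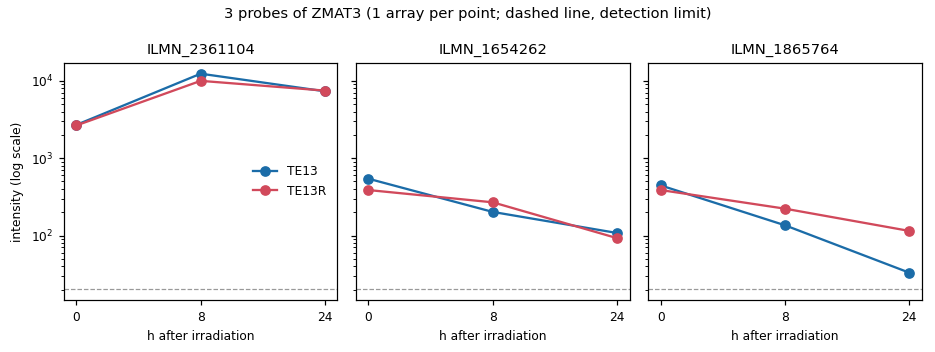
Intensity of the 3 ZMAT3 probes (log axis, 1 panel per probe) at 0, 8 and 24 h after irradiation in TE13 and TE13R, 1 array per point, with the detection limit of 20.2 as a dashed line. The brightest probe is higher at 8 and 24 h than at 0 h in both lines, and both dimmer probes are lower.

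Between the lines, 0 of the 26 members were called higher in TE13R, beside 2.61% of all genes, and 0 lower, beside 2.45% (limma). At an unadjusted p below 0.05, 3 members differed, namely PLK3, RPS27L and SPATA18, and 0 did so in the methods' t-test. The difference in favour of TE13 was largest for SPATA18, at -1.23 ± 0.31 on the log2 scale (95% interval -1.96 to -0.51, adjusted p = 0.0723). TE13 was the higher line at 0 and 24 h, and both 8 h arrays were under the detection limit. RPS27L was higher in TE13R at all 3 times, by 0.59 ± 0.15 (95% interval 0.23 to 0.94, adjusted p = 0.0763). PLK3 was lower in TE13R at 8 and 24 h, with both 0 h arrays under the limit, and the fitted difference was -0.84 ± 0.33 (adjusted p = 0.223). The median difference over the members was 0.07, beside 0.01 over all genes.

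For several members the lines were apart before irradiation and close after it. The log2 difference, TE13R minus TE13, was 3.22 at 0 h for GDF15, -0.18 at 8 h and -0.20 at 24 h. For CDKN1A it was 1.03, -0.18 and -0.02, and for TIGAR -0.88, 0.02 and 0.03. Each of these values sets 1 array against 1 and has no test. At 0 h 3 members were at least 2-fold apart (CDKN1A, GDF15 and SPATA18), beside 11.1% of all genes, at 8 h 2 (PLK3 and POLH), beside 9.64%, and at 24 h 4 (PLK3, PPM1D, RRM2B and SPATA18), beside 11.6%. In TE13R, POLH at 8 h and PLK3 and SPATA18 at 24 h were under the detection limit, and in TE13 RRM2B was so at 24 h. The median size of the difference was 0.40, 0.27 and 0.27 over the members at the 3 times and 0.36, 0.28 and 0.34 over all genes.

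**Figure D4:**
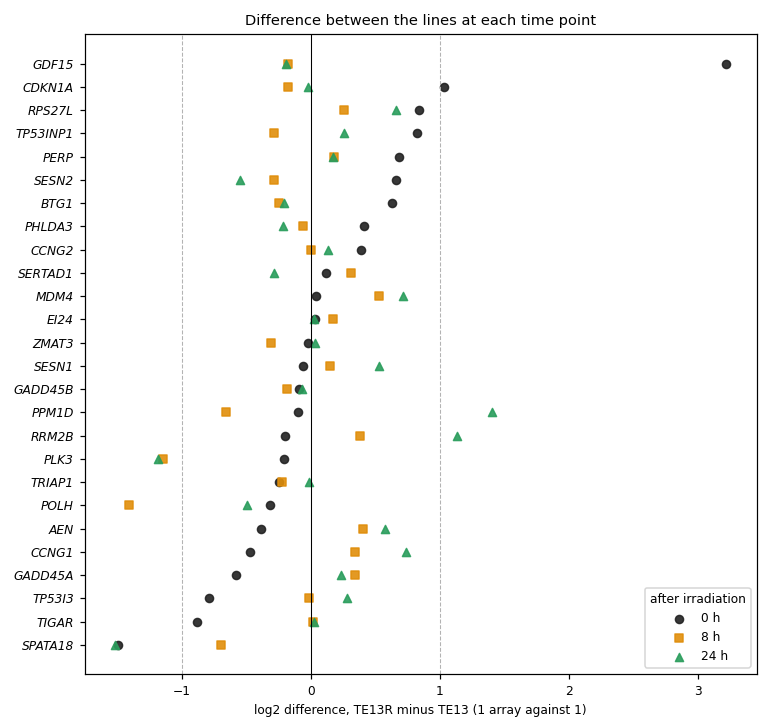
Difference between the lines for each tested member, as log2 of TE13R minus TE13 (horizontal axis), with 1 point for each time point, each setting 1 array against 1. The 0 h points of GDF15 (3.22) and CDKN1A (1.03) lie far to the right of their 8 and 24 h points, and the 0 and 24 h points of SPATA18 are below 0.

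Taken line by line, with 1 array at each time and no test, 13 of the 26 members were at least 1.5-fold higher at 8 h in TE13, beside 36.3% of all genes, and 10 were at least 1.5-fold lower, beside 34.0%. In TE13R 10 were higher at 8 h, beside 32.0%, and 10 were lower, beside 33.2%. At 24 h 10 were higher in TE13, beside 36.0%, and 10 were lower, beside 33.7%. In TE13R 9 were higher at 24 h, beside 30.9%, and 9 were lower, beside 31.8%. CDKN1A, GDF15 and TP53INP1 were in the higher group at 8 h in TE13 and not in TE13R, TP53INP1 from a 0 h value under the detection limit.

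The change to 8 h was at least 2-fold apart between the lines for 4 members (CDKN1A, GDF15, POLH and TP53INP1), beside 14.1% of all genes. The change to 24 h was so for 7 (CCNG1, CDKN1A, GDF15, PPM1D, RRM2B, SESN2 and TP53I3), beside 17.5%. Some of these differences rest on values under the detection limit. These were POLH in TE13R at 8 h (6.97), TP53INP1 in TE13 at 0 h (13.6) and RRM2B at 8 h in both lines and in TE13 at 24 h (16.6). In log2, the change to 24 h in TE13R minus that in TE13 was -3.41 for GDF15, -1.21 for SESN2 and -1.05 for CDKN1A. It was 1.5 for PPM1D, 1.33 for RRM2B, 1.21 for CCNG1 and 1.07 for TP53I3. Of these 7, CDKN1A, GDF15 and SESN2 had the larger increase in TE13, and CCNG1, PPM1D and RRM2B ended further below their 0 h level in TE13. These differences leave no array over to measure their error, and they were not tested. Differences of this kind are also the residual error of the fit of line plus time point.

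The other genes of the pathway were read from lists that the members do not include. These lists were chosen with earlier results of these data known. Their counts stand beside the shares of all genes, which were 27.5% higher and 28.8% lower at 8 h and 27.8% in each direction at 24 h. Of 20 p53 regulators, 17 were tested, and at 8 h 3 rose (TP73, KAT5 and DAXX) and 11 fell, with a median of -1.14 on the log2 scale. ATM, the kinase that signals double-strand breaks to p53, was at 309, 0.36 and 15.8 in TE13 and at 159, -1.83 and 8.70 in TE13R, above the limit at 0 h only. At 24 h 3 of the regulators were higher and 13 lower (median -1.17). Of 25 p53 targets in apoptosis and repair, 20 were tested, and 8 rose and 5 fell at 8 h (median 0.14), with the same counts at 24 h (median 0.42). Those that rose at 8 h included BAX, the pore-forming apoptosis protein (2.16), and DDB2, the damage sensor of excision repair (1.31), and those that fell included APAF1 (-2.47) and PCNA (-1.01).

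Of 20 genes that p21 lowers through the DREAM complex, 20 were tested. At 8 h 6 rose, CDC20 and AURKB among them, and 9 fell, such as TOP2A (-2.21) and KIF23 (-2.12), with a median of -0.79, beside the same 27.5% and 28.8% of all genes. At 24 h 4 were higher and 11 lower (median -0.97). Of 12 stress genes under ATF4, 11 were tested, and 1 rose and 2 fell at 8 h (median -0.11), while 8 rose and 0 fell at 24 h (median 1.27), beside 27.8% of all genes in each direction. Between 8 and 24 h 8 rose and 0 fell (median 1.66), beside 7.67% and 5.23%, and 0 genes of the whole table were called there without the line in the model (2859 at an unadjusted p below 0.05) or without the filter (3765). Since this list was chosen with earlier results of these data known, its counts beside those shares describe the list and are no test of it. DDIT3, the CHOP transcription factor, was at 200, 288 and 7210 in TE13 and at 921, 552 and 7536 in TE13R. Like GDF15, it was higher in TE13R than in TE13 at 0 h and brightest at 24 h in both lines.

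The length of the genes moved with the direction of change from 0 h, over all genes and among the members. In the RefSeq gene table, the median length at 8 h was 13.3 kb for the genes that rose, 50.3 kb for those that fell and 24.9 kb for those not called. For the members these were 6.51 kb (n = 10), 38.1 kb (n = 8) and 17.1 kb (n = 8). At 24 h the members that were higher had a median of 7.89 kb (n = 8) and those lower 38.8 kb (n = 7), beside 14.0 and 47.2 kb over all genes. Between 8 and 24 h, without the 0 h arrays, the order was the other way, with 30.8 kb for all genes that rose and 13.4 kb for those that fell, and 8.22 kb (n = 6) and 7.4 kb (n = 3) for the members. MDM2 (42.5 kb) and MDM4 (41.7 kb) are among the longer members, and GADD45B (2.13 kb) is the shortest. The part of gene length in the members' changes was not tested. Brightness moved with it too: of the 11 members with a mean intensity of 1000 or more, 6 rose and 1 fell at 8 h, beside 38.6% and 31.7% of all genes that bright. Of the 8 members under 100, 1 rose and 5 fell, beside 10.1% and 17.5% of all genes that dim.

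**Figure D5:**
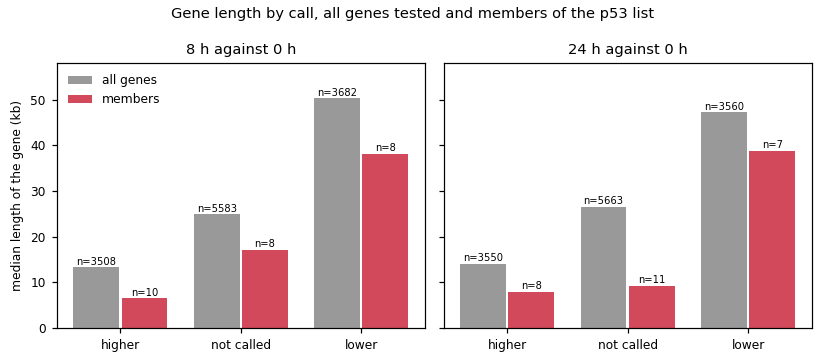
Median length in kb (vertical axis, from 0) of genes called higher, not called and called lower at 8 h against 0 h and at 24 h against 0 h, for all genes tested and for the 26 tested members. At 8 h the medians are 13.3 and 50.3 kb for all genes that rose and fell, and 6.51 and 38.1 kb for the members.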

How the data were processed

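Total RNA of TE13 and TE13R at 0, 8 and 24 h was hybridised to 6 Illumina Human-6 V3 arrays, 1 array per line and time point. The study's methods speak of triplicates while the labels number no replicates. With 1 array per line and time point, the error behind the p-values is how far the lines differ in their changes over time. It is not the spread between repeated cultures. The authors deposited background-subtracted intensity values on 1 common scale from BeadStudio. The sources used here state neither its version nor the normalization, and the number of arrays limits the precision. The arrays had nearly the same distribution, with 14475 to 14486 negative values each, and quantile normalization changed no member's call. A change shared by most genes could thus be missed. Symbols came from the platform annotation (27578 of 48803 probes with 1 symbol, 13 with several, 21212 with none). Negative values were replaced by 0 and log2 of the value plus 16 was used, so changes of dim genes are understated. The filter kept 24765 probes, those in the upper 50% of 3 or more arrays, and the brightest stood for its gene.

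The model was line plus time point, in limma 3.58.1 (R 4.3.3) with a mean-variance trend and Benjamini-Hochberg adjustment over 12783 genes. It has 2 residual degrees of freedom and 5.75 from the prior, and was tested on simulated data. The interaction leaves no residual degree of freedom. A group under the limit on all its arrays gives a bound, "at least" so many fold. All listed members are named, and every array's intensity is given for the 28 with a probe. The members and gene lists were chosen with earlier results of these data known. KY170 and KY170R were not analysed here.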

Additional observations from a re-analysis of the deposited data

Results flagged for a closer look

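GDF15 moved in opposite directions at 8 h in the lines, and the change to 8 h in TE13R minus that in TE13 was -3.40 on the log2 scale. Each direction rests on 1 array at each time, and the difference was not tested. The 0 h array of TE13R, at 4917 against 514 in TE13, enters this value.

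Probes of ZMAT3 that did not stand for the gene carried a signal opposite to that of its brightest probe. The mean change over the lines was -2.04 at 24 h for ILMN_1654262. For ILMN_1865764 it was -1.18 at 8 h and -2.43 at 24 h.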

How the results depend on the processing

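Of 1032 values of single members under the alternatives, 955 kept their direction and their side of the threshold, 49 lost the call, 7 gained it and 21 changed sign. Dropping the trend, the filter, the line or the time point, or using the t-test, leaves a member's difference unchanged, so its sign could not change there. For the line no call could be lost, since the main fit called no member. The 955 is thus no measure of how stable the calls between time points were. For the line, without the 0 h arrays the sign changed for BTG1 (-0.23), CDKN1A (-0.10), GADD45A (0.29), GDF15 (-0.19), PHLDA3 (-0.14), TIGAR (0.023), TP53I3 (0.13) and TP53INP1 (-0.013). Without the 24 h arrays it did for CCNG1 (-0.062), PPM1D (-0.38) and SESN2 (0.19), without the 8 h arrays for SERTAD1 (-0.083), SESN2 (0.056) and ZMAT3 (0.003), and with the mean of the probes for GADD45A (0.012) and ZMAT3 (0.14). No member was called for the line under any of these settings. With the mean of the probes EI24 was at 0.083 and ZMAT3 at -0.02 at 8 h, and ZMAT3 at -1.0 at 24 h. From 8 to 24 h SPATA18 was at -0.99 with an offset of 1 and at -0.033 with centred arrays.

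Over all genes, 646 were called for the line, and 174 without the trend. Without the time point in the model 17 were called, and without the 8 h arrays 142. By the t-test, with the time points of a line as repeats, 1 was called (517 at an unadjusted p below 0.05). Without the filter on dim probes 0 were called (2270 at an unadjusted p below 0.05). For 24 h against 0 h, 7111 were called and 4445 without the filter. For 24 h against 8 h, 1648 were called, 475 without the trend, 0 without the filter (3765 at an unadjusted p below 0.05) and 0 without the line in the model (2859). The cause was not tested. Without the filter 12 of the 18 member calls at 8 h were kept (BTG1, PLK3, PPM1D, RPS27L, SESN2 and TP53I3 were lost) and 8 of the 15 at 24 h (AEN, CCNG1, CDKN1A, GDF15, RRM2B, SPATA18 and TIGAR were lost), and MDM2 was called at both times.

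The members at least 2-fold lower at 24 h in TE13R were 4, against 9 at 1.5-fold. Those whose change differed between the lines numbered 13 at 8 h and 15 at 24 h when 1.5-fold was enough. With an offset of 1 they numbered 9 and 11, and an offset of 64 left 2 and 4. Values below 20.2 have no order, which limits the 10 members that were under it on at least 1 array.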
